A study of Mus musculus with 9 samples.

Results

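Ionotropic glutamate receptors, their auxiliary subunits, the postsynaptic scaffolds that hold them and the glutamate transporters of neurons were described as 1 group of 32 genes. The genes were listed by name as a family, with no threshold on measured values but with earlier results of these data known, and each symbol was matched to its NCBI gene ID. All 32 were present among 36172 features of the count table, and all 32 passed the filter on low counts that left 15144 genes for testing. Messenger RNA was sequenced from total RNA of the medial prefrontal cortex, a part of frontal cortex that helps to regulate emotion and social behaviour, of mice of the inbred strain DBA2/J. The 9 samples formed 3 groups of 3. Non-stressed mice (NS) carried the treatment label saline. SA:ANH-vehicle mice had 5 days of social defeat, in which a mouse meets an aggressor repeatedly, belonged to a subtype that the labels call SA:ANH, and also received saline. SA:ANH-KDM5Ci mice had the same 5 days of defeat and the same subtype label and received an inhibitor of KDM5C, an X-linked enzyme that removes methyl groups from lysine 4 of histone H3. The sources used here do not give the compound, its dose, the animals' ages or the meaning of SA:ANH. Whether each sample is a different mouse is not stated, and the p-values therefore cover no more than the spread among these samples, which may be technical.

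Glutamate is the main excitatory transmitter of the cortex. Vesicular transporters load it into synaptic vesicles, and after release it opens AMPA receptors, which carry the fast current, NMDA receptors, which admit calcium when the cell is already depolarised, and kainate receptors, which shape transmission on both sides of the synapse. MAGUK proteins of the Dlg family and Shank proteins anchor these receptors in the postsynaptic density, cornichons and Neto proteins are auxiliary subunits that set receptor trafficking and gating, and carriers of the Slc1 family take glutamate back up.

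Of the 32 genes, 0 passed the test between SA:ANH-vehicle and NS, where 0.0132% of all genes did, and 0 between SA:ANH-KDM5Ci and SA:ANH-vehicle, where 2.51% did. Between SA:ANH-KDM5Ci and NS 2 passed, or 6.25%, which is near the 3.97% of all genes. These were Neto2, an auxiliary subunit of kainate receptors, and Slc1a1, the neuronal glutamate carrier EAAC1, and both were higher in SA:ANH-KDM5Ci. Their promoters are shown here because these are the members whose RNA rose. Each is the stretch of 250 bases before an annotated start, read 5′ to 3′ on the gene's strand, from RefSeq's table for GRCm38.p6 (mm10 is another name of GRCm38), and capitals mark each CG dinucleotide. Neto2 lies on chromosome 8 from 85636718 to 85700952 on the minus strand, with its window at chr8:85700925-85701174, and Slc1a1 on chromosome 19 from 28835135 to 28913960 on the plus strand, with its window at chr19:28834885-28835134.
Neto2: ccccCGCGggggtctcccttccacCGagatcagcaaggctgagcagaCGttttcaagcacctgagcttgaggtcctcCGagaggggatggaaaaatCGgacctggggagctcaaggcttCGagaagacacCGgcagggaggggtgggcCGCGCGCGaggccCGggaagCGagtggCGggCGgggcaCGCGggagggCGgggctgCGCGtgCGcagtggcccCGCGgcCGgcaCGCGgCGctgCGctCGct
Slc1a1: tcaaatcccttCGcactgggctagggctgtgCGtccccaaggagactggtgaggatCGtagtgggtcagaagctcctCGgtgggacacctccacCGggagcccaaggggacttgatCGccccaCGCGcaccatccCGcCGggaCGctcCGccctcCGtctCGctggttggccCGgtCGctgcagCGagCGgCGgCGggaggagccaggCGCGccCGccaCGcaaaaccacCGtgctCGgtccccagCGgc
Both windows are dense in CG, with 30 such dinucleotides in Neto2 and 27 in Slc1a1, against a median of 6 over 32851 promoter windows of the same length. G and C made up 72.0% and 70.4% of the bases, where the median over all windows was 52.4%. A second start of Neto2 in the same table, at chr8:85691010-85691259, had 0 CG dinucleotides and 42.4% G and C. Of the 32 genes, 22 had entries, with 33 windows and a median of 11 CG dinucleotides per window.

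The same windows were searched on both strands for 5 motifs. None of the 3 windows of Neto2 and Slc1a1 held the full glucocorticoid response element, its shorter form AGAACA, the cAMP response element TGACGTCA, its shorter form TGACG or the E-box CACGTG. Each shorter form lies within its full element, so matches to the full elements count for both. Among all 32851 windows, 0.00913%, 16.1%, 1.55%, 17.8% and 6.02% held these motifs in that order. Among the 33 windows of the glutamate genes the shares were 0 of 33 for both full elements, 3 of 33 for AGAACA (Cnih2, Dlg1 and Dlg3), 4 of 33 for TGACG (in Dlg3, Dlg4, Grin1 and Slc17a6) and 5 of 33 for CACGTG (in Cnih3, Dlg1, Grin1 and Slc1a6). A match or its absence describes only these letters in these windows.

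The NS libraries held 29845097 to 36033714 counts, those of SA:ANH-vehicle 33733470 to 42196472 and those of SA:ANH-KDM5Ci 30525714 to 40700115. The lowest count of any member in a library was 112 (Slc17a8) and the highest 63186 (Slc17a7). Markers of excitatory neurons, all 12 of which were detected, summed to between 7344 and 7971 CPM (counts scaled to library size, with TMM normalisation) per library. Striatal neuron markers, also 12 of 12 detected, summed to 244 to 399 CPM in NS, 266 to 345 CPM in SA:ANH-vehicle and 319 to 750 CPM in SA:ANH-KDM5Ci. Markers of oligodendrocytes summed to 1495 to 3044, 1947 to 3055 and 2734 to 3573 CPM in the same order, and markers of meninges and fibroblasts to 427 to 714, 569 to 781 and 360 to 494 CPM.

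**Figure D1:**
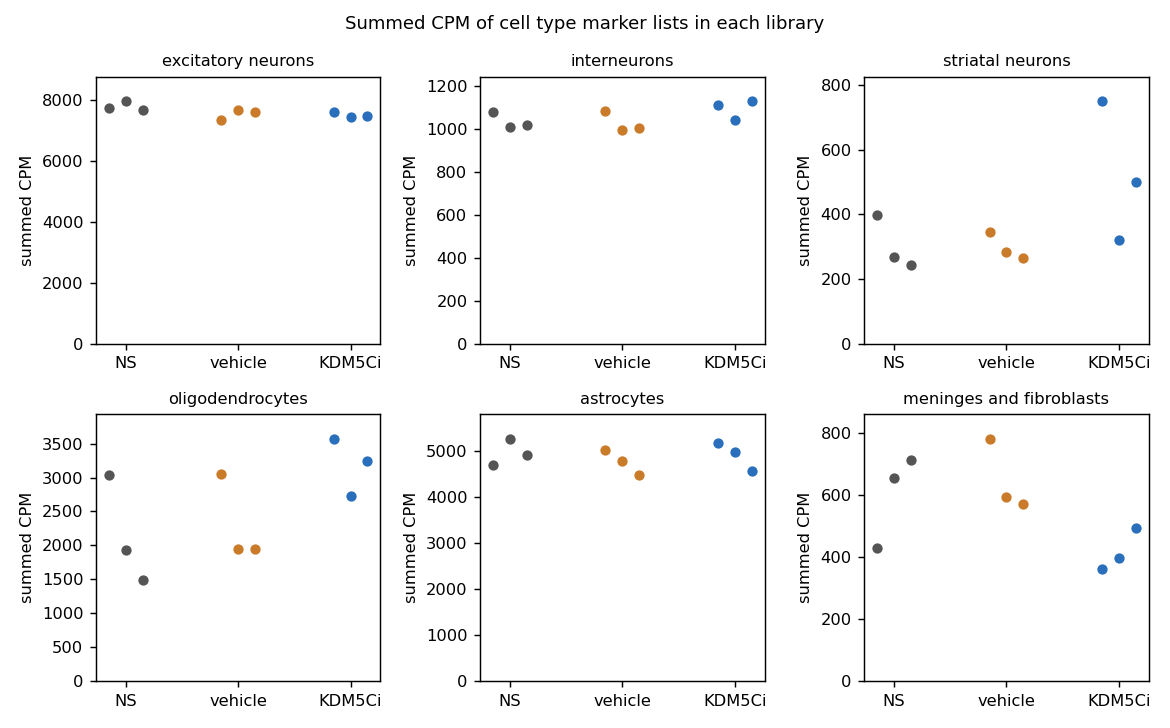
Summed CPM of 6 lists of cell type markers (vertical axes, starting at 0) in each of the 9 libraries by group; each point is 1 library. Sums of excitatory neuron markers lay between 7344 and 7971 CPM, while striatal markers reached 750 CPM in 1 SA:ANH-KDM5Ci library.

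To compare levels between genes, mean CPM was divided by gene length, since longer transcripts give more reads. In NS, Slc17a7, the vesicular transporter VGLUT1 of most cortical excitatory neurons, had the highest level, at 554 ± 13.1 CPM per kb of exon (SD, n = 3). Its relatives Slc17a6 (VGLUT2, the main form of thalamic neurons) and Slc17a8 (VGLUT3) had 4.34 ± 0.394 and 0.905 ± 0.0999 CPM per kb of exon. Slc17a7 thus made up 99.1% ± 0.0928 of the 3 vesicular transporters in NS, 99.0% ± 0.204 in SA:ANH-vehicle and 99.0% ± 0.0675 in SA:ANH-KDM5Ci.

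Among AMPA receptor subunits the order in NS was Gria2, the subunit that blocks calcium entry, at 85.9 ± 4.001, Gria3 at 77.9 ± 5.41, Gria1 at 65.2 ± 2.38 and Gria4 at 26.8 ± 1.79 CPM per kb of exon. Gria2 and Gria3 lay within a distance of about their summed SDs. Per kb of the longest coding sequence the order was the same, at 340, 159, 139 and 62.5 CPM. Gria2 was 33.6% ± 0.481 of the length-scaled AMPA total in NS, 34.4% ± 0.219 in SA:ANH-vehicle and 33.6% ± 0.273 in SA:ANH-KDM5Ci, and Gria1 was 25.5% ± 0.412, 25.0% ± 0.502 and 25.1% ± 0.634.

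Grin1, the obligatory subunit of NMDA receptors, stood at 132 ± 2.74 CPM per kb of exon, above the other NMDA subunits, which ranged from 2.47 ± 0.0873 (Grin2d) to 9.59 ± 0.379 (Grin2c). The order of Grin2a, Grin2b, Grin2c and Grin3a depended on the length used. Grin2b, with 24787 bases of annotated exon, had 2.63 CPM per kb of exon and 14.7 CPM per kb of coding sequence, while Grin2c, with 5037 bases of exon, had 9.59 and 12.99. No order is therefore given for these 4 subunits. Among kainate subunits Grik5, which needs a partner of the Grik1 to Grik3 group to form a channel, led with 73.0 ± 2.55 CPM per kb of exon, followed by Grik3 at 16.9 ± 0.298, and both lengths kept these places. Among scaffolds Dlg4 (PSD-95) had 67.7 ± 1.34, Dlg2 (PSD-93) 60.1 ± 5.58, Dlg3 (SAP102) 43.6 ± 1.82 and Dlg1 (SAP97) 33.4 ± 1.13 CPM per kb of exon, and Shank1 had 53.1 ± 2.41 against 32.5 ± 0.986 in Shank3 and 14.2 ± 1.44 in Shank2.

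**Figure D2:**
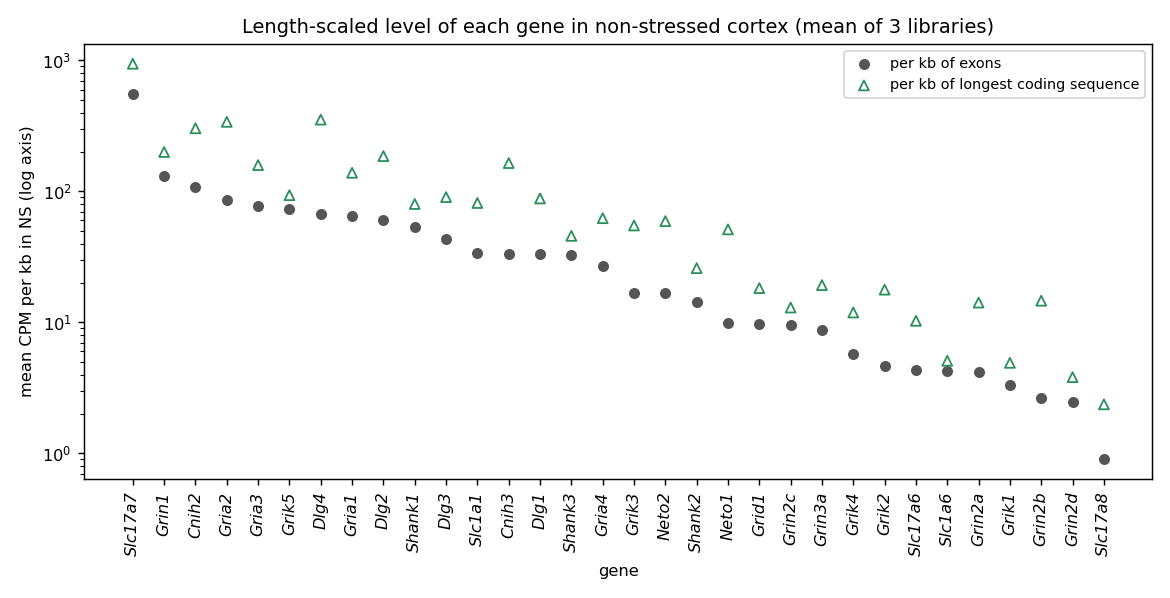
Mean CPM per kb in the 3 NS libraries (vertical log axis) of each of the 32 genes, ordered by the level per kb of exon; circles use the union of exons and triangles the longest coding sequence. Slc17a7 is highest on both scales and Slc17a8 lowest on both.

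The comparison of SA:ANH-vehicle with NS asks what differed in stressed mice of that subtype. No member passed the test in either direction. In edgeR's quasi-likelihood fit, adjusted over 15144 genes by the Benjamini-Hochberg method, 0 of 32 passed, where 0.0132% of all genes did, and DESeq2 and limma-voom also called 0. At an unadjusted p under 0.05 there were 4 of 32 genes, 3 lower and 1 higher, where 8.21% of all genes were. The log2 fold changes ran from -0.13 (Grin2a) to 0.11 (Neto2), with a median of -0.05, beside 0.00 over all genes tested. Values below 0 were found for 25 of the 32, where 48.4% of all genes were below 0, and without TMM scaling for 22, so that members near 0 have no fixed sign.

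The genes below 0 included all 4 AMPA subunits, all 6 NMDA subunits, 3 of 5 kainate subunits and 6 of 7 scaffolds. The 6 NMDA subunits had log2 fold changes from -0.13 to -0.03 and the AMPA subunits from -0.06 to 0.00, with Gria2 at 900.4 CPM in both groups, whereas 2 of 5 kainate subunits and both Slc1 carriers lay above 0. Grin1 was measured at 585, 579 and 562 CPM in NS and at 542, 541 and 528 CPM in SA:ANH-vehicle. Each NS value exceeded each SA:ANH-vehicle value, and the log2 fold change was -0.10 (SE 0.04), which did not pass (edgeR, adjusted p = 0.581). On the opposite strand, a noncoding gene, Grin1os, shares 29.9% of the annotated exon bases of Grin1, and it was counted at 0.412 to 0.728 CPM. How the counting assigned reads in the shared bases is not given in the sources used here.

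Slc17a7 was at 1669, 1687 and 1612 CPM in NS and at 1481, 1607 and 1571 CPM in SA:ANH-vehicle, again without overlap between the groups (log2 fold change -0.09, SE 0.05, adjusted p = 0.638 by edgeR). Grid1, which encodes a delta receptor that binds synaptic organisers of the cerebellin family, was at 54.2, 56.2 and 55.5 CPM in NS and at 51.6, 52.9 and 50.1 CPM in SA:ANH-vehicle. Grik5 was at 284, 265 and 275 CPM in NS and at 235, 263 and 262 CPM in SA:ANH-vehicle, with replicate 1 of SA:ANH-vehicle lowest. The log2 fold changes of Grid1 and Grik5 were -0.10 (SE 0.05) and -0.12 (SE 0.05), with adjusted p values of 0.604 and 0.603 by edgeR. These 4 genes were the ones whose groups did not overlap, all lower in SA:ANH-vehicle, where 6.81% of all genes were lower and 8.29% higher without overlap. Neto2 was the gene of higher level in SA:ANH-vehicle with an unadjusted p under 0.05 (log2 fold change 0.11, SE 0.05, adjusted p = 0.595 by edgeR), and its groups overlapped. In bulk tissue, fewer cells of a type and less RNA per cell cannot be told apart.

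How much change the data leave room for can be read from the intervals. For 26 of the 32 genes the 95% interval of the fold change between SA:ANH-vehicle and NS lay within 1.2-fold in both directions. The other 6 were Grin2a, Grin2b, Grin2d, Grin3a, Slc17a6 and Slc17a8. Grin2a had the widest interval, from -0.68 to 0.43 on the log2 scale.

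**Figure D3:**
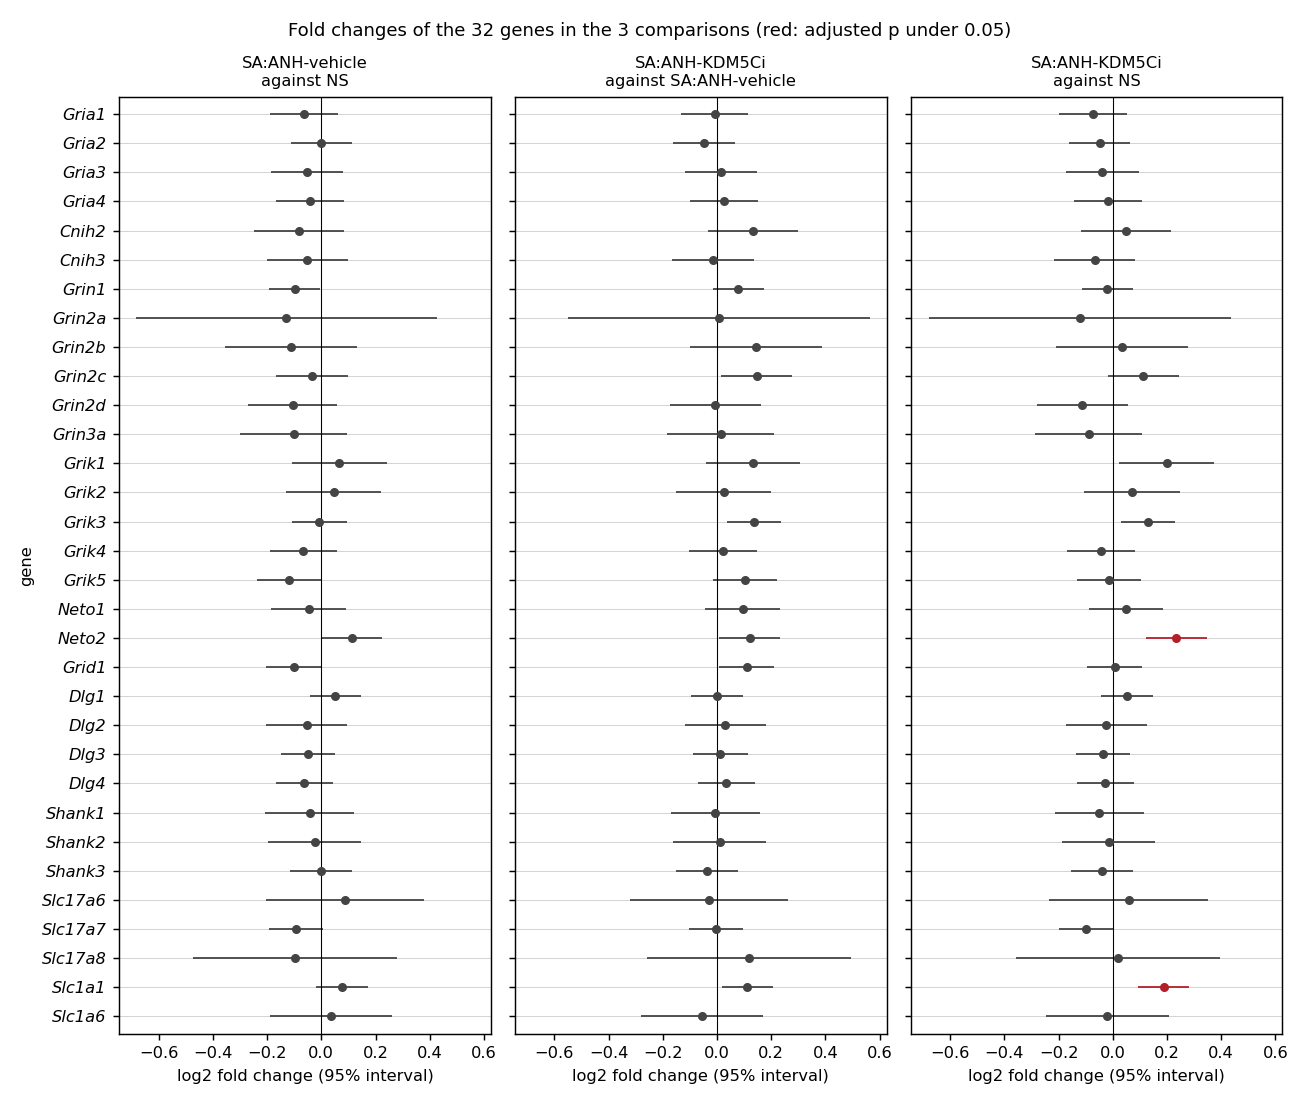
Log2 fold change with its 95% interval (horizontal axes) for each of the 32 genes in the 3 comparisons; red points passed at an adjusted p under 0.05. Red points appear for Neto2 and Slc1a1 in SA:ANH-KDM5Ci against NS, and Grin2a has the widest intervals.

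The effect of the inhibitor within stressed mice was read from SA:ANH-KDM5Ci against SA:ANH-vehicle. Here too no member passed in either direction. In edgeR 0 of 32 passed, where 2.51% of all genes did (0.891% higher and 1.62% lower), and DESeq2 and limma-voom called 0. At an unadjusted p under 0.05 there were 5 of 32, all higher, where 14.2% of all genes were under it in either direction. The median log2 fold change was 0.02, beside 0.00 over all genes, with values above 0 for 23 of 32 and below 0 for 9 (51.1% and 48.9% of all genes), but without TMM scaling for 16. This comparison shares its SA:ANH-vehicle libraries with the one before, so their values are not independent.

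The genes of lowest p were a kainate subunit, the carrier Slc1a1, an NMDA subunit, Neto2 and Grid1. Grik3 was at 156, 153 and 144 CPM in SA:ANH-vehicle and at 169, 167 and 162 CPM in SA:ANH-KDM5Ci, without overlap (log2 fold change 0.14, SE 0.05, adjusted p = 0.178 by edgeR). Grin2c, the NMDA subunit that is prominent in astrocytes and cerebellar granule cells, was at 43.8, 49.2 and 48.7 CPM in SA:ANH-vehicle and at 54.3, 49.1 and 53.3 CPM in SA:ANH-KDM5Ci, and the groups overlapped (log2 fold change 0.15, SE 0.06, adjusted p = 0.284). Summed astrocyte markers were at 4493 to 5024 CPM and 4571 to 5178 CPM in these groups, and their part in the value of Grin2c was not tested.

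Slc1a1 went from 131, 136 and 139 CPM to 147, 146 and 145 CPM and Neto2 from 103, 106 and 111 CPM to 116, 116 and 115 CPM, in both cases with every SA:ANH-KDM5Ci library above every SA:ANH-vehicle library. Their log2 fold changes of 0.11 (SE 0.04) and 0.12 (SE 0.05) had adjusted p values of 0.253 and 0.304 by edgeR. For Grid1 the libraries of SA:ANH-KDM5Ci were at 53.9, 56.5 and 56.4 CPM, again all above SA:ANH-vehicle (log2 fold change 0.11, SE 0.05, adjusted p = 0.307 by edgeR). In all, 7 members were higher without overlap (Grin1, Grin2b, Grik1, Grik3, Neto2, Grid1 and Slc1a1) and 0 were lower, where 7.92% and 10.9% of all genes were. For Grik1 the margin between the groups was under the last digit printed here, with 15.1 CPM as both the highest SA:ANH-vehicle and the lowest SA:ANH-KDM5Ci value.

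The 4 AMPA subunits lay between -0.05 and 0.03 on the log2 scale and the 7 scaffolds between -0.04 and 0.03. Of the cornichons, Cnih3 was at -0.01, while Cnih2 was at 0.13 (95% interval -0.04 to 0.30), with 118, 144 and 151 CPM in SA:ANH-vehicle and 149.5, 148 and 155 CPM in SA:ANH-KDM5Ci. The groups overlapped for Cnih2, and replicate 1 of SA:ANH-vehicle was the lowest library. The interval lay within 1.2-fold for 24 of 32 genes. The exceptions were Cnih2, Grin2a, Grin2b, Grin2c, Grik1, Slc17a6, Slc17a8 and Slc1a6.

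SA:ANH-KDM5Ci against NS compares stressed mice given the inhibitor with non-stressed mice, so stress, subtype and inhibitor cannot be told apart in it, and it shares libraries with both other comparisons. Neto2 and Slc1a1 passed as higher and no member passed as lower. That is 2 of 32, or 6.25%, where 3.97% of all genes passed in edgeR (1.86% higher and 2.11% lower), so the share is near the background. At an unadjusted p under 0.05 there were 4 of 32, all higher, where 18.5% of all genes were under it. The median log2 fold change was -0.02, beside 0.00 over all genes, and 19 of 32 values were below 0 (50.1% of all genes).

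Neto2 encodes a transmembrane protein with CUB domains that slows the desensitisation of kainate receptors. It was at 92.3, 100.1 and 103 CPM in NS, at 103, 106 and 111 CPM in SA:ANH-vehicle and at 116, 116 and 115 CPM in SA:ANH-KDM5Ci. All SA:ANH-KDM5Ci libraries lay above all others, and SA:ANH-vehicle and NS overlapped. The rise from 98.5 ± 5.54 to 116 ± 0.376 CPM (SD, n = 3) was 1.18-fold, or 0.23 on the log2 scale (SE 0.05, 95% interval 0.12 to 0.35), and passed with an adjusted p of 0.0228 in edgeR.

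Slc1a1 encodes the carrier that takes up glutamate, aspartate and cysteine into neurons. Its libraries were at 125, 131 and 128 CPM in NS and at 147, 146 and 145 CPM in SA:ANH-KDM5Ci, without overlap. SA:ANH-vehicle, at 131, 136 and 139 CPM, overlapped NS and lay below SA:ANH-KDM5Ci. The rise from 128 ± 2.91 to 146 ± 0.748 CPM (SD, n = 3) was 1.14-fold, or 0.19 on the log2 scale (SE 0.04, 95% interval 0.09 to 0.28), and passed with an adjusted p of 0.0315 in edgeR. A gene on the other strand, 4430402I18Rik, shares 32% of its annotated exon bases and was counted at 3.42 to 4.52 CPM in NS and 4.46 to 5.33 CPM in SA:ANH-KDM5Ci (log2 fold change 0.32, adjusted p = 0.223). The sources used here do not say whether the counting used the strand.

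Neither call held in all 9 fits that left out 1 library: Neto2 passed in 4 of them and Slc1a1 in 2. The call of Neto2 was lost without NS replicate 1 (adjusted p = 0.0547) or 2 (0.0631) and without SA:ANH-KDM5Ci replicate 1 (0.0766), 2 (0.0512) or 3 (0.0515) by edgeR. That of Slc1a1 was lost without NS replicate 1 (0.0645), 2 (0.0730) or 3 (0.121), without SA:ANH-KDM5Ci replicate 1 (0.100), 2 (0.0658) or 3 (0.0634), and without SA:ANH-vehicle replicate 2 (0.0606). The last of these libraries is in neither group compared, but it enters the filter, scaling and spread of the shared fit. Over these 9 fits the log2 fold changes stayed between 0.20 and 0.27 for Neto2 and between 0.18 and 0.21 for Slc1a1. By the other alternatives, DESeq2 and limma-voom among them, both genes passed in 9 of 9 fits, with adjusted p values from 0.00139 to 0.0339 and from 0.00208 to 0.0493.

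Several marker lists moved with these groups. Summed striatal and oligodendrocyte markers lay higher and meningeal markers lower in SA:ANH-KDM5Ci than in most other libraries, as given above. Endothelial markers, 7 of 7 detected, summed to 171 to 217 CPM in SA:ANH-KDM5Ci, below the 220.2 to 235 CPM of NS and the 219.7 to 237 CPM of SA:ANH-vehicle, and 3 of the 7 fell against each. Among all genes tested, 2.11% fell against NS and 1.62% against SA:ANH-vehicle. Not all endothelial markers were lower: 2 of 7 were above 0 against NS, up to 0.37 on the log2 scale. Against SA:ANH-vehicle 1 of 7 was above 0, at 0.12. Interneuron markers, 8 of 8 detected, summed to 1044 to 1129 CPM in SA:ANH-KDM5Ci, 1009 to 1081 CPM in NS and 995 to 1082 CPM in SA:ANH-vehicle. Of these interneuron markers, 1 of 8 rose against NS (Lhx6, log2 fold change 0.26, adjusted p = 0.0456 by edgeR), where 1.86% of all genes did. Values were above 0 for 6 of 8 against NS, with a median of 0.10. Against SA:ANH-vehicle they were above 0 for 8 of 8, with a median of 0.14. NS replicate 3 stood apart in markers of thalamus and olfactory bulb, at 109 CPM against 55.1 to 68.5 CPM in the other libraries. The part of these markers in the calls of Neto2 and Slc1a1 was not tested.

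**Figure D4:**
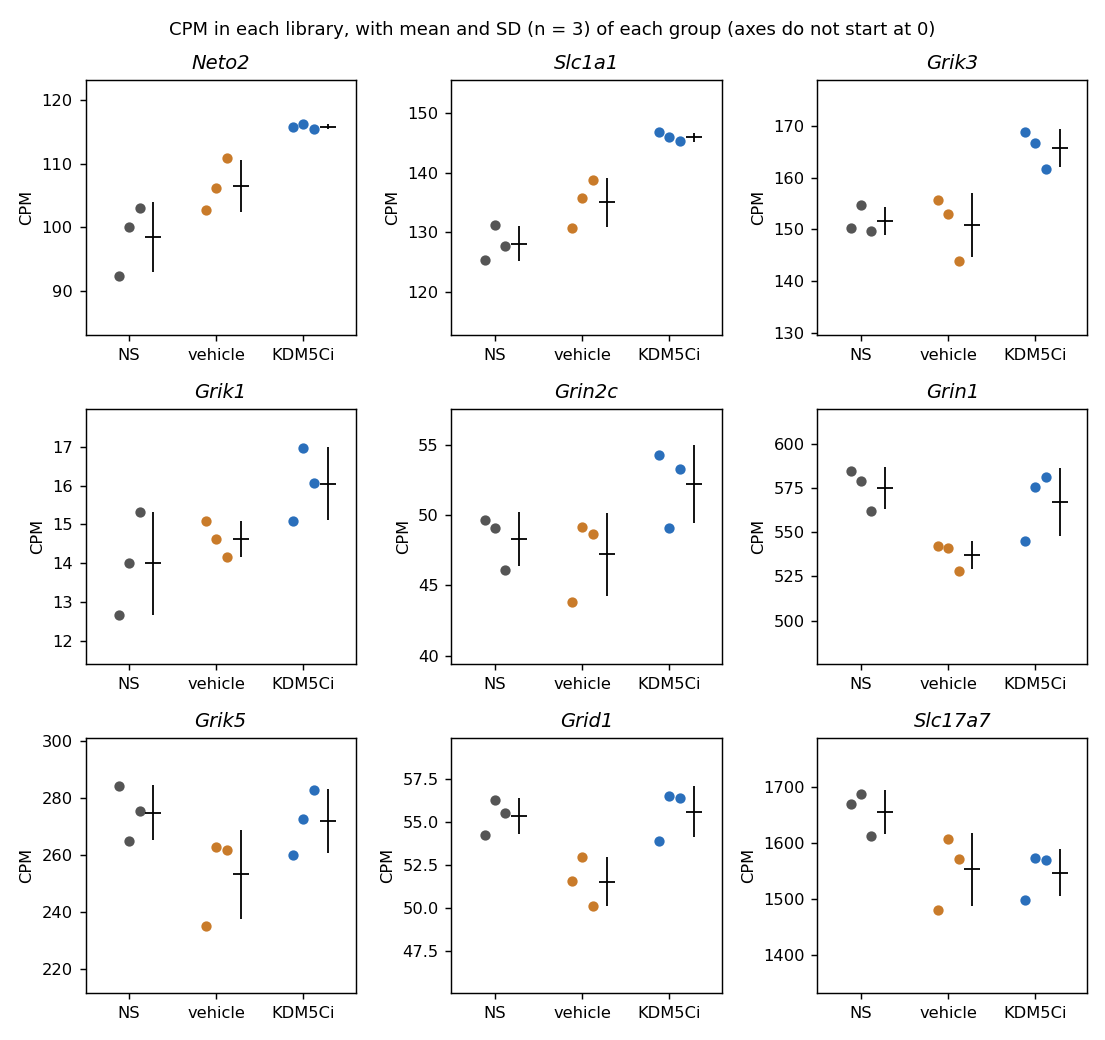
CPM (vertical axes, not starting at 0) of 9 genes in each library by group; points are libraries, and the bar beside them is the mean with its SD (n = 3). Neto2 and Slc1a1 are highest in all 3 SA:ANH-KDM5Ci libraries, and Grin1 and Grid1 are lowest in the 3 SA:ANH-vehicle libraries.

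Next in p were 2 kainate subunits and Slc17a7, and none of them passed. Grik3 was at 150.3, 155 and 150 CPM in NS, below all 3 SA:ANH-KDM5Ci libraries (log2 fold change 0.13, SE 0.05, adjusted p = 0.153 by edgeR). Grik1, which forms kainate receptors that are common on interneurons, was at 12.7, 13.99 and 15.3 CPM in NS and at 15.1, 17.0 and 16.1 CPM in SA:ANH-KDM5Ci, with overlap (log2 fold change 0.20, SE 0.08, adjusted p = 0.205). Slc17a7 was at 1499, 1573 and 1570 CPM in SA:ANH-KDM5Ci, below all 3 NS libraries (log2 fold change -0.10, SE 0.05, adjusted p = 0.280). Without overlap between the groups, 3 members were higher (Neto2, Slc1a1 and Grik3) and 1 lower (Slc17a7), where 11.5% and 12% of all genes were.

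The remaining members lay between -0.12 and 0.11 on the log2 scale in this comparison. The AMPA subunits ranged from -0.07 to -0.02, the NMDA subunits from -0.12 (Grin2a) to 0.11 (Grin2c) and the scaffolds from -0.05 to 0.05. Intervals lay within 1.2-fold for 23 of 32 genes. Those that did not were Neto2 and Slc1a1, which passed, and Grin2a, Grin2b, Grin2d, Grin3a, Grik1, Slc17a6 and Slc17a8.

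**Figure D5:**
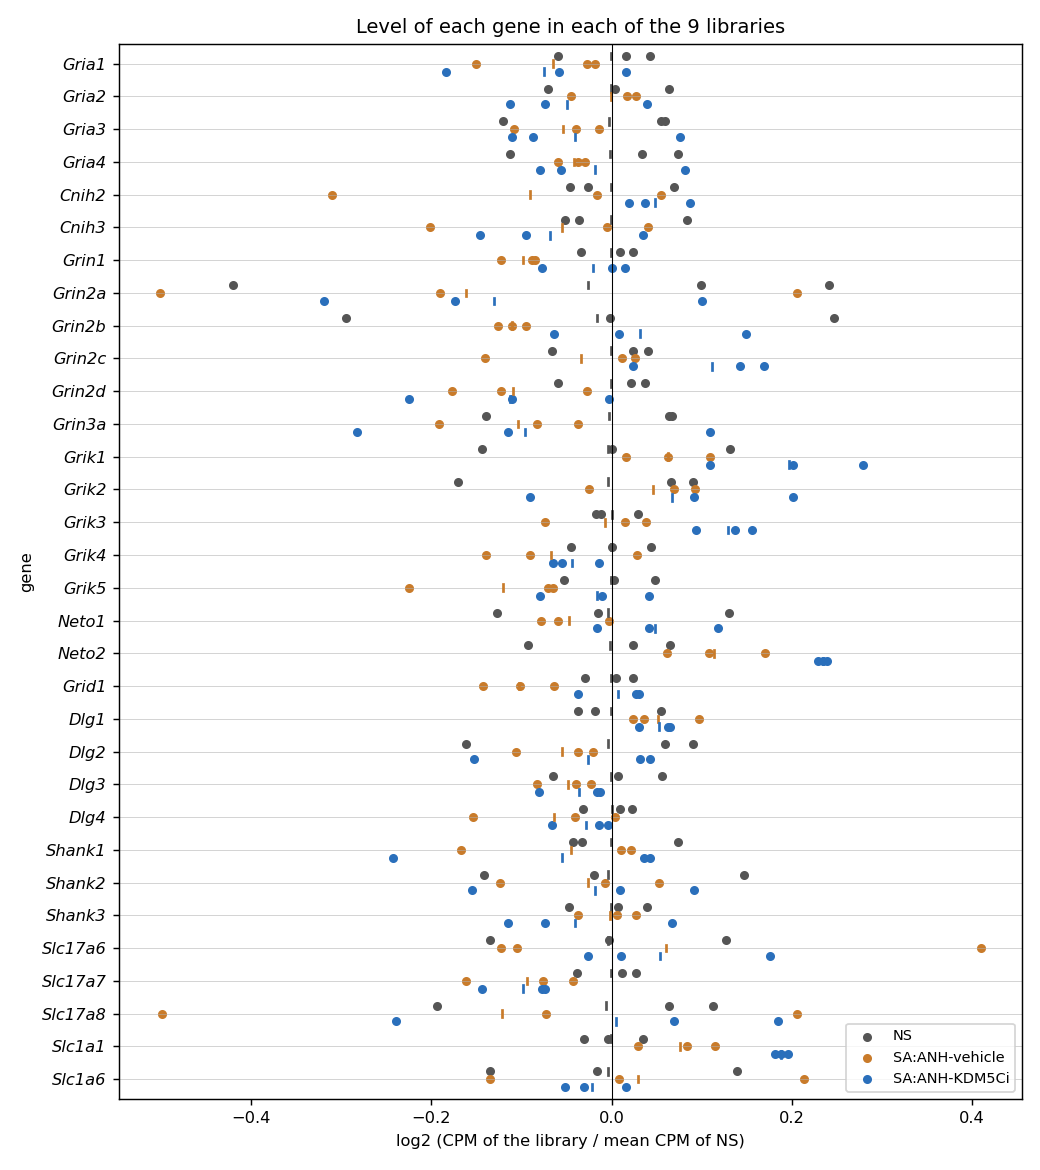
Log2 ratio of each library's CPM to the mean CPM of NS (horizontal axis) for each of the 32 genes; points are libraries in the colour of their group and short bars are group means of the log2 ratios. Most points lie within 0.2 of zero, Neto2 and Slc1a1 are shifted to the right in SA:ANH-KDM5Ci, and Grin2a, Slc17a6 and Slc17a8 spread most.

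Members differed in how much they varied between libraries of the same group. The within-group SD of log2 CPM had a median of 0.08 over the 32 genes and ran from 0.03 to 0.31, beside a median of 0.10 over all genes tested and 0.08 over genes of at least 10 CPM. Slc1a1 had the smallest spread, with 1.92% of all tested genes below it. Grid1, Grin1 and Dlg1 were also narrow, with 3.13%, 3.20% and 3.89% of genes below them.

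Grin2a, the NMDA subunit that gains on Grin2b as the cortex matures, had the largest spread of the members, above 89.4% of all genes. It was at 46.5, 73.6 and 66.6 CPM in NS, at 71.8, 54.6 and 44.0 CPM in SA:ANH-vehicle and at 55.2, 66.7 and 49.9 CPM in SA:ANH-KDM5Ci, so the 3 groups covered much the same range. Grin2b was at 53.1, 77.3 and 65.0 CPM in NS but at 59.7, 61.0 and 60.3 CPM in SA:ANH-vehicle and 62.3, 72.2 and 65.5 CPM in SA:ANH-KDM5Ci. NS replicate 1 was lowest and NS replicate 2 highest for both genes within NS. Slc17a6, at 16.4 to 19.6 CPM in NS, reached 23.9 CPM in SA:ANH-vehicle replicate 1 against 16.7 and 16.5 CPM in the other libraries of that group. Markers of thalamus and olfactory bulb, of which 10 of 10 were detected, summed to 60.7 CPM in that library and to 60.8 and 55.1 CPM in replicates 2 and 3. Other marker sums were highest there: oligodendrocytes at 3055 against 1952 and 1947 CPM and striatal neurons at 345 against 282 and 266 CPM. Meninges and fibroblasts were at 781 against 592.5 and 569 CPM. The part of any of these lists in the value of Slc17a6 was not tested.

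Other genes of glutamate synapses were counted from lists of AMPA receptor auxiliary proteins with neuronal pentraxins, postsynaptic density partners, trans-synaptic organisers, and uptake, synthesis and recycling. In SA:ANH-vehicle against NS, 0 of 18, 0 of 18, 0 of 19 and 0 of 15 tested genes passed by edgeR, where 0.0132% of all genes did. The genes of lowest p were Cacng5, Homer1, Lrfn1 and Slc38a2, with log2 fold changes of -0.45, 0.24, -0.17 and 0.21 and adjusted p values of 0.478, 0.389, 0.308 and 0.380. List medians were -0.02, -0.02, -0.05 and -0.05.

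Slc38a2, a carrier of glutamine and other small neutral amino acids, had the lowest p of the related genes in both comparisons with SA:ANH-KDM5Ci. Its level in SA:ANH-KDM5Ci was 221 ± 13.4 CPM, above 144 ± 3.08 CPM in NS and above the 166 ± 15.5 CPM of SA:ANH-vehicle (SD, n = 3). The log2 fold change was 0.41 (SE 0.07, adjusted p = 0.00459) against SA:ANH-vehicle and 0.62 (SE 0.07, adjusted p = 0.000136) against NS by edgeR, and both calls held without any 1 library. Slc7a11, the cystine and glutamate exchanger, had larger log2 fold changes that did not pass, at -0.52 (SE 0.18, adjusted p = 0.212) and -0.74 (SE 0.18, adjusted p = 0.0549), and was chosen after its values were seen. In SA:ANH-KDM5Ci against SA:ANH-vehicle, 1 of 15 genes of uptake and recycling rose, 1 of 19 trans-synaptic organisers fell, and 0 of 18 passed in each of the other lists, with Nptx1 (0.13, adjusted p = 0.202) and Dlgap3 (0.11, adjusted p = 0.288) lowest in p there. Of all genes, 0.891% rose and 1.62% fell in this comparison. The organiser was Lrrtm4, a postsynaptic partner of heparan sulfate proteoglycans, which fell by 0.28 on the log2 scale from 21.9 ± 1.195 to 18.0 ± 0.593 CPM (adjusted p = 0.0341). Its call was lost in 7 of 9 fits without 1 library (all but those without NS replicate 1 or SA:ANH-vehicle replicate 3), with adjusted p up to 0.168, and with only the 2 groups compared (0.0688).

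Against NS, SA:ANH-KDM5Ci had 1 of 18 postsynaptic density partners that rose, 1 of 19 organisers that rose and 2 that fell, 1 of 15 uptake and recycling genes that rose and 1 that fell, and 0 of 18 AMPA receptor auxiliaries, of which Olfm1 was lowest in p (-0.17, adjusted p = 0.108). Of all genes, 1.86% rose and 2.11% fell, so that 1 gene of a list this short is near the background. The organisers and the uptake and recycling genes each had more than 1 call. Their shares were higher than the 3.97% of all genes called in either direction, and this difference was not tested. Homer1, a scaffold that links metabotropic receptors and Shank proteins, rose from 203 ± 15.2 to 263 ± 18.7 CPM (log2 fold change 0.37, adjusted p = 0.0145). Slitrk1 (log2 fold change -0.29, adjusted p = 0.0223) and Lrrtm4 (-0.27, 0.0343) fell, while Lrfn2 (0.33, 0.0357) rose. Slc38a3, the glutamine carrier of astrocytes, fell by 0.23 from 79.6 ± 1.41 to 67.8 ± 4.37 CPM (adjusted p = 0.0267), with all of these p values from edgeR. The Homer1 call was lost without SA:ANH-KDM5Ci replicate 3 (adjusted p = 0.0560). Apart from Slc38a2, the other calls were lost in 4 to 6 of the 9 fits without 1 library. For Slitrk1 these left out NS replicate 2 or 3 or SA:ANH-KDM5Ci replicate 1 or 3 (adjusted p up to 0.121), and for Lrrtm4 NS replicate 2 or 3 or any SA:ANH-KDM5Ci library (up to 0.132). For Lrfn2 they left out any NS library, SA:ANH-KDM5Ci replicate 1 or 3, or replicate 2 of SA:ANH-vehicle (up to 0.146), and for Slc38a3 any NS library or SA:ANH-KDM5Ci replicate 1 or 2 (up to 0.0994). The Slc38a3 call was also lost with only the 2 groups compared (0.0556).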

How the data were processed

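RNA sequencing of 9 libraries was used. Per the labels' protocols, RNA was extracted from frozen tissue with a Direct-zol kit and made into strand-specific libraries (SureSelect). Per the submitters' processing notes, reads were handled with Trimmomatic 0.32, TopHat2 2.0.13 and Bowtie2 2.2.3 on mm10. Values for each gene are expected counts, deposited by the authors and made with a tool not given in the sources used here; 15.7% of values above 0 were whole within 1e-06. They were rounded to whole numbers. Features without a symbol in RefSeq's GRCm38.p6 table held 0.367% of the counts.

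Genes were filtered with filterByExpr, scaled by TMM (factors 0.987 to 1.01) and tested with edgeR 4.0.16 (R 4.3.3), quasi-likelihood with robust moderation, 1 mean per group in 1 fit of 9 libraries, Benjamini-Hochberg over 15144 genes at 0.05. The standard error is the log2 fold change divided by the root of F. The biological coefficient of variation was 6.95%, and a count of 0 allows up to 0.101 CPM in the shallowest library. The fit was also run on simulated counts in which every gene had the same coefficient of variation. The members differ in spread, so that run cannot show how the fit performs for each of them. No batch or date is in the labels. No pair of replicates was a duplicate (chi-square per degree of freedom at least 3.44). Replicate 1 stood apart in NS (17 and 15.9, against 3.44 for replicates 2 and 3) and in SA:ANH-vehicle (12.5 and 18, against 5.15). It also had the most oligodendrocyte marker RNA there, at 3044 against 1936 and 1495 CPM in NS and 3055 against 1952 and 1947 CPM in SA:ANH-vehicle. The part of this difference in the values of members was not tested. Exon and coding lengths came from GENCODE M21 (basic set), since the authors' gene models were not given; the filter, lengths and strand handling can shift levels. Ptprd, of the related lists, is listed at 0 in all libraries, which may be a failed estimate.

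Members and lists were chosen with earlier results of these data known. Named are members that passed, the 5 of lowest p per comparison, and, from each related list, up to 4 genes that passed or the 1 of lowest p; Grin2a, Grin2b, Slc17a6, Slc17a8 and other members are also given for levels and spread, chosen after their values were seen. Each library was left out in turn; the other alternatives were limma-voom (limma 3.58.1), DESeq2 1.42.0, edgeR with DESeq2's size factors or without TMM, no filter or a mean of at least 1 CPM, a fit of just the 2 groups, plain moderation, and a block for replicate number. Coding length was chosen after seeing the data. Intervals are 95%.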

Additional observations from a re-analysis of the deposited data

How the results depend on the processing

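The count of members that passed in SA:ANH-KDM5Ci against NS was 2 and ranged from 0 to 2 when 1 library was left out, and the other 2 comparisons had 0 in all 18 alternatives, DESeq2 and limma-voom included. In SA:ANH-vehicle against NS the count over all genes was 2, with 81 by DESeq2, 11 without TMM, 11 without a filter, 17 with only the 2 groups compared and 2 to 17 without 1 library. That in SA:ANH-KDM5Ci against SA:ANH-vehicle was 380, with 203 to 429 without 1 library, and that in SA:ANH-KDM5Ci against NS was 601, with 269 to 747. The members of lowest p, whose values were recomputed singly, kept their direction in every alternative run, but without TMM the members above 0 went from 7 to 10 in SA:ANH-vehicle against NS, from 23 to 16 in SA:ANH-KDM5Ci against SA:ANH-vehicle, and, in SA:ANH-KDM5Ci against NS, from 13 to 12. With the replicate block the adjusted p was 0.0193 for Neto2 and 0.0361 for Slc1a1 in SA:ANH-KDM5Ci against NS, and the block changed no call of a member. The labels do not say that equal replicate numbers mark shared animals, and deviations of same-numbered libraries correlated from -0.14 to 0.24 in 9 pairs, with 4 of 9 libraries closest to one of their own number. Length choice moved shares within families: by coding length Gria2 was 48.6% of AMPA subunits, Dlg4 49.2% of MAGUK scaffolds and Grik5 51.1% of kainate subunits in NS, against 33.6%, 33.1% and 70.5% by exon length. With 3 libraries a group, a gene that did not pass may still have changed by an amount within its interval. Grin2a, Slc17a6 and Slc17a8 are the least precise.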
